A study of Mus musculus with 6 samples.

Results

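Genes for fatty acid oxidation, ketone metabolism and the peroxisome proliferator-activated receptors (PPARs) were followed in mouse colon organoids. The set held 43 genes of the 25067 in the expression table. They were chosen by name for their known roles, with earlier results of these data known. Of these, 40 had a mean of at least 10 normalized counts and were tested, and Ppara, Cd36 and Fabp1 lay below that level.

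All organoids came from C57BL/6 mice, 8 weeks old, of the genotype Prkcif/fPrkczf/f;Villin-CreERT2, so both groups carried the floxed alleles of both atypical protein kinase C (aPKC) genes and a tamoxifen-activated Cre recombinase driven by the Villin promoter of gut epithelium. At passage they received ethanol vehicle or 4-OH-tamoxifen (4-OHT), which activates the Cre, and RNA was taken 3 days later. Each group had 3 libraries, labelled as wild type and as double knockout. The medium held B27, WNT3A, EGF, Noggin and R-spondin 1 for all of them. No library treated with 4-OHT but lacking Cre or the floxed alleles was analysed here, so loss of the kinases, Cre activity and 4-OHT itself cannot be told apart. The labels name no separate cultures or animals behind the replicates, and the p-values measure the spread between these libraries, which may be technical.

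The 6 libraries held 15804709 to 26957612 reads. Prkcz fell from 880, 904 and 954 normalized counts with vehicle to 287, 265 and 290 with 4-OHT, a log2 fold change of -1.70 (SE 0.08, adjusted p = 3.2e-12). Prkci moved from 3603, 3526 and 3430 to 2869, 3105 and 3089, a log2 fold change of -0.22 (SE 0.05, adjusted p = 0.00081). Both targeted transcripts were lower in every 4-OHT library. In the organoids as a whole, 8 colonocyte markers summed to 7123 to 8658 normalized counts with vehicle and 11357 to 14044 with 4-OHT, and 4 of the 7 tested rose. Most of that sum was Car1, at 4724 to 5756 with vehicle and 8657 to 10662 with 4-OHT. Of 6 goblet cell markers 4 rose and 1 fell, and of 6 epithelial markers 5 rose and 1 fell. All 8 proliferation markers fell, from sums of 36225 to 38703 to sums of 20630 to 23012. The part of these shifts in the results below was not tested, and in bulk RNA fewer cells of a type and less RNA per cell cannot be told apart. 4-OHT replicates 2 and 3 also stood apart from replicate 1 in some small-intestinal transcripts, described with Fabp2. Genes whose call was lost without both of these replicates are therefore marked.

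Fatty acids that enter a cell are bound by carrier proteins, joined to coenzyme A, and then stored as triglyceride in lipid droplets or carried into mitochondria on carnitine. There, and for the longest chains in peroxisomes, they are shortened by cycles of beta-oxidation, and their acetyl-CoA can be turned into ketone bodies. PPARs are nuclear receptors that bind fatty acids, pair with retinoid X receptors at direct-repeat DNA elements and switch on many of these genes, and in the gut epithelium they are known to respond to dietary fat.

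With 4-OHT, all 5 lipid droplet and triglyceride genes rose, as did the binding protein Fabp2 and the secreted PPAR target Angptl4. Both acyl-CoA thioesterases and both PGC-1 coactivators of the set fell. The mitochondrial enzymes split, with 6 of 10 higher and 2 lower, and none of the 3 carnitine shuttle genes passed the test. In a separate list of mitochondrial oxidation genes, 0 of 6 tested rose and 1 fell, with a median log2 fold change of 0.01. Over the 40 tested genes, 17 rose and 8 fell at an adjusted p under 0.05, or 42.5% and 20%, against 22.7% and 21% of all 13210 genes tested. Quantile normalization split the calls differently, at 14 higher and 11 lower, beside 2852 and 2843 of all 13210 genes. With 4-OHT replicates 2 and 3 both left out, 8 rose and 5 fell, beside 1858 and 1711 of all genes. Changes beyond 0.5 on the log2 scale were seen in 4 genes that rose and 3 that fell, with a background of 6.68% of all genes higher and 7.51% lower at that size. The 3 values of one group lay wholly above those of the other for 30 of the 40 genes, or 75%, against a background of 52.1%. These genes were more abundant than most, with a median of 1381 normalized counts against 529 for all tested genes. Among the 26 with a mean of at least 1000, 12 rose and 4 fell, or 46.2% and 15.4%, against 36.1% and 23.3% of all genes at that level. The median log2 fold change of the 40 genes was 0.07, beside -0.005 for all genes, with a range of -0.92 to 1.18.

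**Figure D1:**
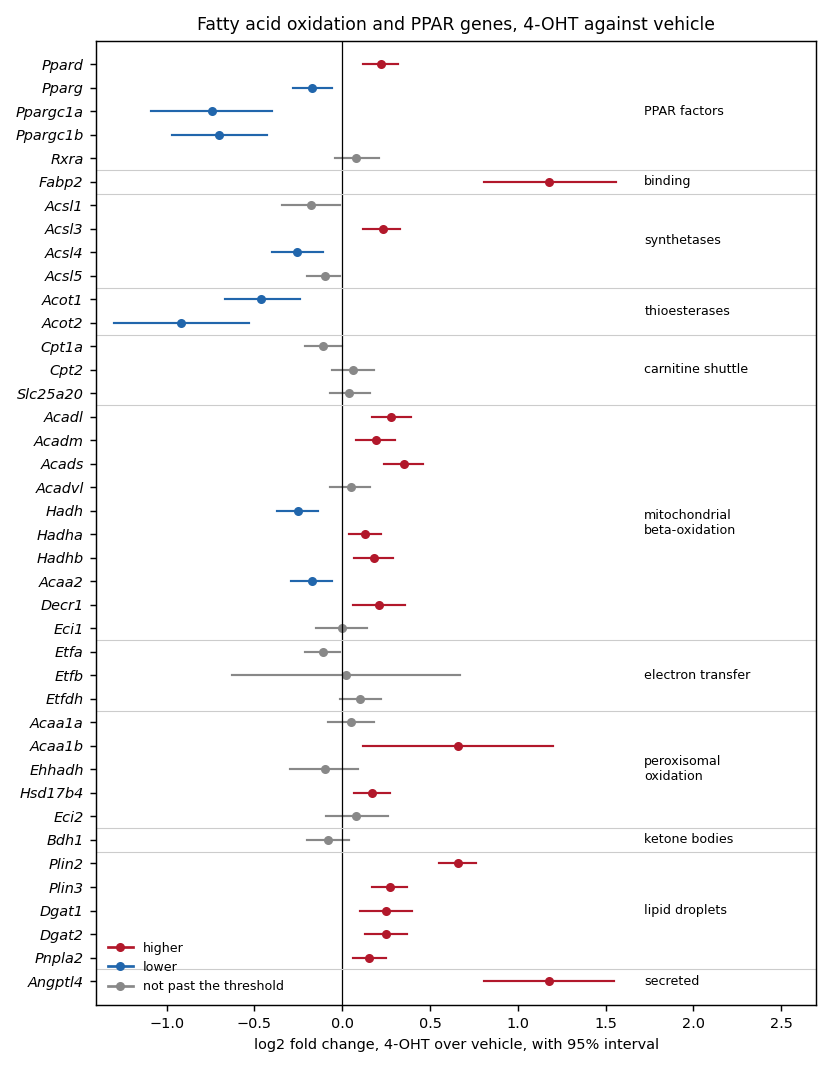
Log2 fold change of 4-OHT over vehicle (horizontal axis) with its 95% interval for each of the 40 tested genes, in order of role (vertical axis), 3 libraries a group. Red points passed the test as higher, blue as lower and grey did not pass: the 5 lipid droplet genes lie right of 0, while Fabp2 and Angptl4 lie farthest right at 1.18 and Acot2 farthest left at -0.92.

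Among the PPAR factors, Ppard, the fatty acid receptor known to act in intestinal epithelium, stood at 2927, 2815 and 2792 normalized counts with vehicle and 3446, 3299 and 3210 with 4-OHT. Every 4-OHT library was above every vehicle library. It rose by a log2 fold change of 0.22 (SE 0.05, adjusted p = 0.00068) and passed under all 16 alternative settings. Pparg, the receptor best known from adipocytes and also expressed in colon epithelium, stood at 2944, 2967 and 2811 with vehicle and 2387, 2786 and 2590 with 4-OHT. The groups did not overlap, but one 4-OHT library lay close to the vehicle range. The log2 fold change was -0.17 (SE 0.05, adjusted p = 0.016), and it no longer passed without vehicle replicate 1 (-0.16), vehicle replicate 2 (-0.16) or 4-OHT replicate 1 (-0.11). Without 4-OHT replicates 2 and 3 it was -0.28 and passed. Ppara, the receptor that dominates in liver, had 8, 9 and 6 reads with vehicle and 6, 6 and 7 with 4-OHT, too few for a comparison. Rxra, the retinoid X receptor with which PPARs pair, stood at 1294, 1200 and 1366 against 1319, 1330 and 1438. Its groups overlapped, and its log2 fold change of 0.08 (SE 0.06, adjusted p = 0.28) had a 95% interval of -0.04 to 0.21.

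The 2 coactivators moved further. Ppargc1a, which encodes PGC-1alpha, a coactivator of mitochondrial and oxidative genes, fell from 112, 123 and 119 normalized counts to 83.7, 63.2 and 64.9, or from 118 ± 5.76 to 70.6 ± 11.4 (SD, n = 3). Its relative Ppargc1b fell from 323, 336 and 286 to 242, 160 and 188, or from 315 ± 26.2 to 196 ± 41.7 (SD, n = 3). Neither gene's groups overlapped, and in both 4-OHT replicate 1 was the nearest to the vehicle range. The log2 fold changes were -0.74 (SE 0.16, adjusted p = 0.001) for Ppargc1a and -0.70 (SE 0.13, adjusted p = 0.00019) for Ppargc1b. With 4-OHT replicates 2 and 3 both left out they were -0.49 and -0.38 and did not pass.

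**Figure D2:**
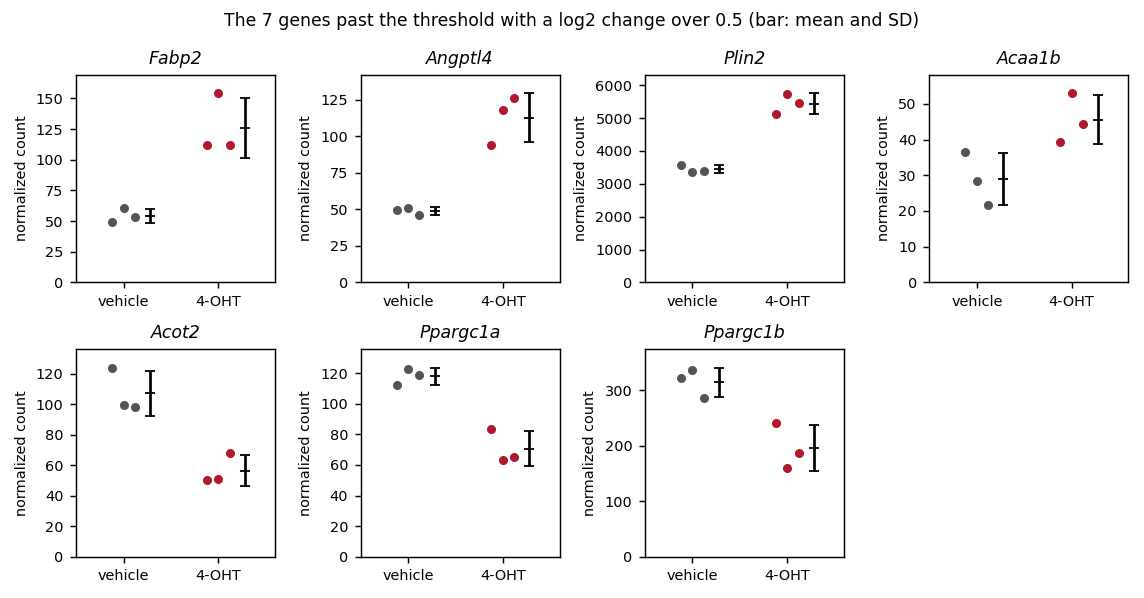
Normalized counts (vertical axes, from 0) of the 7 genes that passed the test with a log2 change beyond 0.5, in 3 vehicle libraries (grey) and 3 4-OHT libraries (red), with the mean and SD beside the points. In each panel the 4-OHT points lie wholly above or wholly below the vehicle points.

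Of the proteins that take up and bind fatty acids, Fabp2, the intestinal fatty acid binding protein, rose from 49.4, 60.3 and 53.3 normalized counts to 112, 154 and 112. The means were 54.3 ± 5.5 and 126 ± 24.8 (SD, n = 3), which is a log2 change of 1.18 (SE 0.18, adjusted p = 2e-05) or 2.27-fold. All 3 4-OHT libraries lay above the vehicle libraries. It passed under all 16 alternatives, at 1.03 to 1.26. Fabp1, the liver-type binding protein that small-intestinal enterocytes also make, had no read in any vehicle library and 0, 1 and 2 reads with 4-OHT. Cd36, the membrane fatty acid translocase, had 1, 0 and 0 reads with vehicle and 0, 0 and 2 with 4-OHT. Both were at or under the limit of 3 reads that a count of 0 allows in a library, and a difference was not detectable at this depth.

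Fabp2 is also a small-intestinal gene, and some other small-intestinal transcripts appeared in 2 of the 3 4-OHT libraries. Fabp6, the ileal bile acid binding protein, had 2, 3 and 2 reads with vehicle and 4, 120 and 34 with 4-OHT. Apoa1, an apolipoprotein of enterocytes and liver, had 0, 2 and 7 reads with vehicle and 1, 99 and 74 with 4-OHT. Defa24 and Defa30, antimicrobial defensins of Paneth cells, were at 4 and 0 reads in 4-OHT replicate 1, 145 and 78 in replicate 2 and 176 and 117 in replicate 3, and at no more than 6 and 0 reads with vehicle. These 4 genes were chosen after their values were seen. Of the whole list of 7 Paneth cell markers 4 rose, all of them low with vehicle, 1 (Mmp7) fell by 0.28 on the log2 scale, and Lyz1 and Itln1 did not pass. Their sum was 821 to 1024 normalized counts with vehicle and 743, 1305 and 1349 with 4-OHT. The whole list of 8 small-intestinal enterocyte markers summed to 77.5 to 138 normalized counts with vehicle and to 125, 370 and 303 with 4-OHT. Of the 5 tested, 3 rose (Fabp6, Apoa1 and Sis), while Slc10a2 and Alpi did not pass. Slc10a2 was at 53.7, 41.5 and 45.5 normalized counts in 4-OHT replicates 1, 2 and 3. Apoa4, Apoc3 and Lct were too low to test. Fabp2 was at 112, 154 and 112 normalized counts in 4-OHT replicates 1, 2 and 3. It was equal in replicates 1 and 3, where the enterocyte sum was 125 and 303. Both were highest in replicate 2, where Fabp6 and Apoa1 gave 124 and 103 of the sum of 370. Whether the Fabp2 rise came with small-intestinal material was not tested. Without 4-OHT replicates 2 and 3 the log2 fold change of Fabp2 was 1.03. Antibody transcripts of plasma cells followed the same libraries, as Igha had no read with vehicle and 1, 135 and 40 reads with 4-OHT. The 6 immune cell markers that include it summed to 169 to 214 normalized counts with vehicle and 133, 370 and 206 with 4-OHT. 4-OHT replicate 3 also held more of 5 fibroblast markers, 180 normalized counts against 5.67 to 20.5 in the other libraries. The 3 adipocyte markers in the table summed to 0 to 1.87 with vehicle and 1.03, 2.07 and 12.5 with 4-OHT, and Adipoq was at 0 in all 6 libraries.

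**Figure D3:**
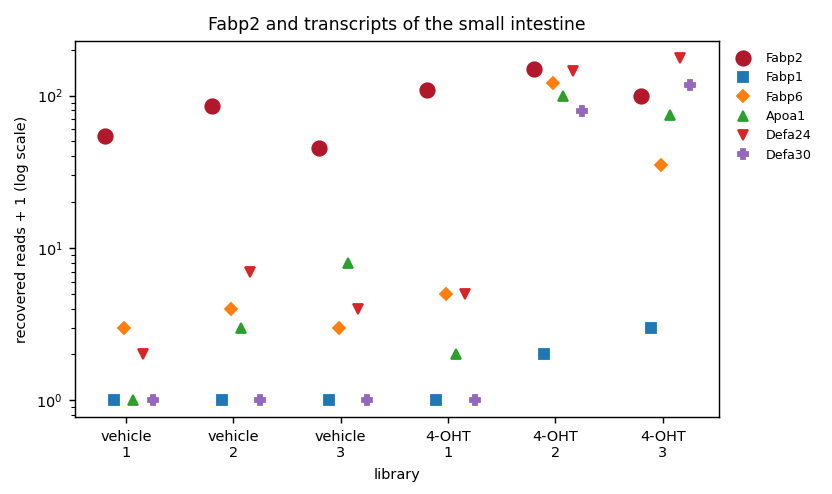
Reads plus 1 (vertical axis, log scale) of Fabp2, Fabp1 and 4 small-intestinal transcripts in each library (horizontal axis). Fabp2 is high in all 3 4-OHT libraries, while Fabp6, Apoa1, Defa24 and Defa30 are at 34 to 176 reads in 4-OHT replicates 2 and 3 and at 7 or fewer elsewhere.

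The promoters of these 2 binding proteins are shown because one gene rose and the other was barely read, and because they differ in the PPAR element. The element searched for was a direct repeat of AGGTCA with 1 base between the copies, on both strands, in RefSeq promoters (build GRCm38.p6) that run from 250 bases before the start to 50 after. The 250 bases before the start are printed here, 5′ to 3′ on the gene's strand. Fabp2 lies at chr3:122894822-122895071 and Fabp1 at chr6:71199629-71199878, both on the plus strand.
Fabp2: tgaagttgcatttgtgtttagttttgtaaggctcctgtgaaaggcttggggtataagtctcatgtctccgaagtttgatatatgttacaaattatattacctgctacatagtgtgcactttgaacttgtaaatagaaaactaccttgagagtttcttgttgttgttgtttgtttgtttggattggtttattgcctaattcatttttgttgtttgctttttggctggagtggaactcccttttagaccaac
Fabp1: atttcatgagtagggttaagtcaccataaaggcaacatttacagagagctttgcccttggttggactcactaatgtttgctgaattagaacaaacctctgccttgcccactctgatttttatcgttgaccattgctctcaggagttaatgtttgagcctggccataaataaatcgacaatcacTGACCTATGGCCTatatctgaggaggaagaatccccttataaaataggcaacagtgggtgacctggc
The capitals in Fabp1 mark a repeat that reads on the opposite strand with 1 mismatch to the 12 fixed bases, at -67 to -55 from the start. The best repeat in the Fabp2 window had 3 mismatches.

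The acyl-CoA synthetases, which join fatty acids to coenzyme A, moved in both directions. Acsl3, found on the endoplasmic reticulum and on growing lipid droplets, rose from 6785, 7015 and 6362 normalized counts to 7543, 8322 and 7709, with a log2 fold change of 0.23 (SE 0.05, adjusted p = 0.00081). Acsl4, which prefers arachidonate and similar polyunsaturated chains, fell from 1555, 1703 and 1349 to 1233, 1268 and 1343, with a log2 fold change of -0.26 (SE 0.07, adjusted p = 0.0057). The Acsl4 groups all but touched, at 1349 and 1343, and the call was lost without vehicle replicate 2 (-0.18). Acsl3 no longer passed without 4-OHT replicates 2 and 3 (0.17). Acsl1, a major synthetase of oxidative tissues, did not pass at -0.18 (SE 0.08, adjusted p = 0.082), and neither did Acsl5, which is abundant in intestine, at -0.10 (SE 0.04, adjusted p = 0.064). For both, all 4-OHT values lay below the vehicle values, and Acsl1 passed without 4-OHT replicate 3 (-0.24) and Acsl5 under quantile normalization (-0.15).

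The 2 thioesterases of the set, which undo that step by splitting acyl-CoA into free fatty acid and coenzyme A, both fell. Acot2, the mitochondrial form, went from 124, 99.3 and 98.1 normalized counts to 50.6, 50.8 and 68.3, or from 107 ± 14.7 to 56.6 ± 10.2 (SD, n = 3). Acot1, the cytosolic form, went from 318, 267 and 288 to 200, 219 and 215. The groups were apart in both genes. The log2 fold changes were -0.92 (SE 0.18, adjusted p = 0.0004) for Acot2 and -0.46 (SE 0.10, adjusted p = 0.0014) for Acot1, and both passed under all 16 alternatives. The 2 transcripts are near copies, with 24.5% of the 50-base words of Acot2 also present in Acot1, so the split of reads between them is uncertain. The other Acot genes tested, named after their values were seen, did not fall with them. Acot7 (0.23) and Acot9 (0.56) rose, and Acot4, Acot6, Acot8, Acot11 and Acot13 did not pass at -0.19 to 0.21.

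The carnitine shuttle carries long-chain fatty acids into mitochondria. Cpt1a, its rate-limiting enzyme on the outer membrane, stood at 2410, 2263 and 2201 normalized counts with vehicle and 2073, 2146 and 2161 with 4-OHT. The groups did not overlap, but the log2 fold change of -0.11 (SE 0.05, adjusted p = 0.095) did not pass, except under quantile normalization (-0.15). Cpt2, the inner-membrane transferase, was at 0.06 (95% interval -0.06 to 0.18). Slc25a20, the carnitine-acylcarnitine carrier, was at 0.04 (95% interval -0.07 to 0.16).

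Of the mitochondrial beta-oxidation enzymes, the acyl-CoA dehydrogenases catalyse the first step, each for its own range of chain lengths. Acads, for short chains, rose from 1715, 1642 and 1719 normalized counts to 2057, 2274 and 2161, a log2 fold change of 0.35 (SE 0.05, adjusted p = 1.6e-05). Acadl, for long chains, rose from 2787, 2881 and 2598 to 3279, 3556 and 3179, a log2 fold change of 0.28 (SE 0.05, adjusted p = 0.00027). Both were apart between the groups and passed under all 16 alternatives. Acadm, for medium chains, rose by 0.19 (SE 0.05, adjusted p = 0.0075). Acadvl, for very long chains, was at 0.05 (95% interval -0.07 to 0.16) and did not pass. Of its exonic bases, 45.0% lie in exons of Dvl2 on the opposite strand. The strand setting of the counting is not given, so its reads are uncertain.

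The later steps of the cycle split. Hadha and Hadhb encode the 2 subunits of the mitochondrial trifunctional protein, which handles long chains. Hadha went from 4959, 5222 and 5098 normalized counts to 5560, 5582 and 5569, a log2 fold change of 0.13 (SE 0.04, adjusted p = 0.018). Hadhb went from 1554, 1587 and 1714 to 1834, 1850 and 1820, a log2 fold change of 0.18 (SE 0.05, adjusted p = 0.0084). The groups were apart in both, but neither passed under quantile normalization (0.06 for Hadha and 0.13 for Hadhb) or without vehicle replicate 1 (0.11 and 0.15), and Hadha did not pass without 4-OHT replicate 3 (0.13). In contrast, Hadh, the hydroxyacyl-CoA dehydrogenase for shorter chains, fell from 2055, 2189 and 2235 to 1893, 1860 and 1690, a log2 fold change of -0.25 (SE 0.06, adjusted p = 0.00095). Acaa2, the thiolase that releases acetyl-CoA, fell by 0.17 on the log2 scale (SE 0.05, adjusted p = 0.015). Every 4-OHT value of these 2 enzymes lay below every vehicle value, and Acaa2 did not pass without vehicle replicate 3 (-0.15). Decr1, a reductase needed for polyunsaturated chains, rose by 0.21 (SE 0.07, adjusted p = 0.022) but did not pass without vehicle replicate 1 (0.15) or 4-OHT replicate 3 (0.18). Eci1, the isomerase for unsaturated chains, had a 95% interval of -0.15 to 0.14. With 4-OHT replicates 2 and 3 both left out, Acadm (0.18), Hadha (0.13), Hadhb (0.18), Hadh (-0.19) and Decr1 (0.19) did not pass.

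The trifunctional subunit genes lie head to head, which is why their shared promoter is shown. Their RefSeq starts, at 30154980 for Hadha on the minus strand and 30155253 for Hadhb on the plus strand of chromosome 5, have 272 bases between them. The run printed is chr5:30155003-30155252 on the plus strand, and its capitals mark the 228 bases that fall in the promoter windows of both genes.
Hadhb: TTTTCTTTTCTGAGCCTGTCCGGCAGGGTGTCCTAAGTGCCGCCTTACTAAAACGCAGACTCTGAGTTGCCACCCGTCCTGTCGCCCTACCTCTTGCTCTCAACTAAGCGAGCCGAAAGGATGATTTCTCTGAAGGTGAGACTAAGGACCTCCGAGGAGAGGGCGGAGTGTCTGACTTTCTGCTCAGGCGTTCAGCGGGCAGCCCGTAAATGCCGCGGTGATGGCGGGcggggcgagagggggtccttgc
Of those shared bases 57.0% are G or C.

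The electron transfer genes pass electrons from the acyl-CoA dehydrogenases to the respiratory chain, and none of the 3 passed. Etfa, one subunit of the electron transfer flavoprotein, was at -0.11 (SE 0.05, adjusted p = 0.059), with all 4-OHT values below the vehicle values, and it did pass under quantile normalization (-0.16), by edgeR on the recovered reads (-0.12) and without 4-OHT replicate 2 (-0.13). Etfdh, the oxidoreductase that hands the electrons to ubiquinone, was at 0.10 (SE 0.05, adjusted p = 0.13). Etfb, the other flavoprotein subunit, was listed with only 19 to 50 reads a library and had a 95% interval of -0.63 to 0.67. Of its exonic bases, 69.1% also lie in exons of Gm45233 on the same strand, so its reads are uncertain.

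In peroxisomes, Hsd17b4, a bifunctional enzyme that also handles branched chains, rose from 1956, 2012 and 2059 normalized counts to 2236, 2321 and 2230, a log2 fold change of 0.17 (SE 0.05, adjusted p = 0.0072). The groups were apart, but it did not pass without 4-OHT replicates 2 and 3 (0.15). Acaa1b, a peroxisomal thiolase, went from 36.4, 28.4 and 21.8 to 39.3, 52.9 and 44.4, a log2 fold change of 0.66 (SE 0.26, adjusted p = 0.045). That call rested on 18 to 51 reads a library and did not hold under 8 alternatives, among them edgeR (0.64), DESeq2 (0.64) and leaving out vehicle replicate 2 (0.66), vehicle replicate 3 (0.48), 4-OHT replicate 2 (0.55) or 4-OHT replicate 3 (0.67). Without 4-OHT replicates 2 and 3 together it was 0.46 and did not pass. It shares 35.5% of its 50-base words with its near copy Acaa1a, which was at 0.05 (SE 0.06, adjusted p = 0.54). Ehhadh, the other bifunctional enzyme and a classic PPAR target in liver, was at -0.10 (SE 0.09, adjusted p = 0.41). Eci2, a peroxisomal isomerase, was at 0.08 (SE 0.09, adjusted p = 0.45).

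For ketone bodies, Bdh1, which interconverts acetoacetate and beta-hydroxybutyrate, stood at 2106, 2385 and 2398 normalized counts with vehicle and 2075, 2303 and 2142 with 4-OHT. The groups overlapped, and the log2 fold change was -0.08 (SE 0.06, adjusted p = 0.29, 95% interval -0.20 to 0.04).

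**Figure D4:**
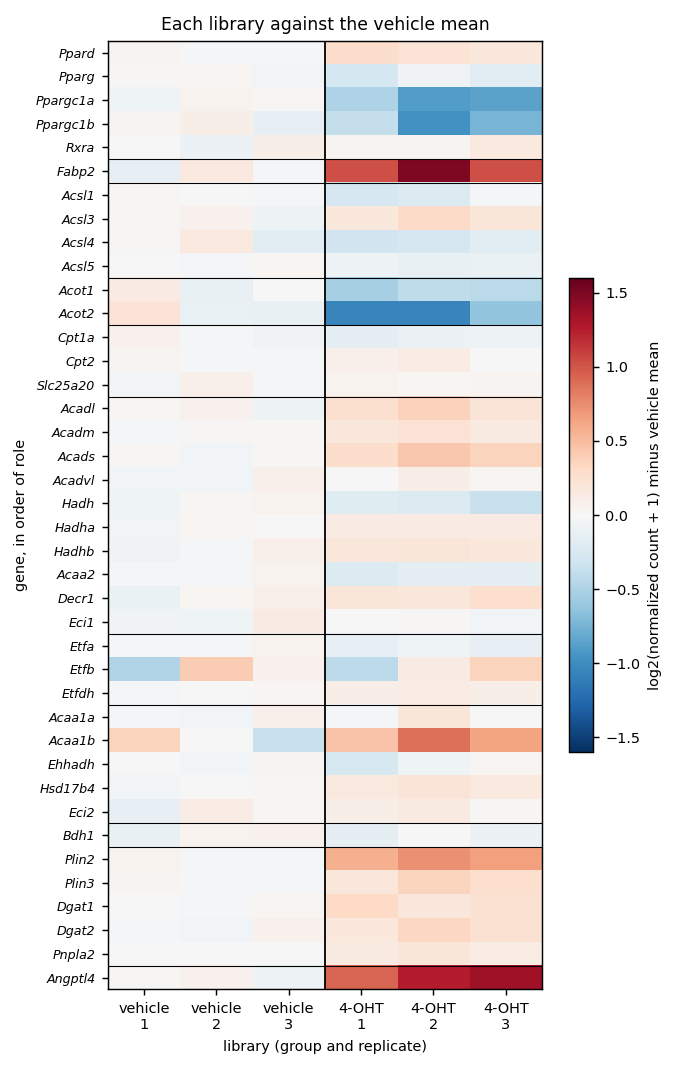
Each of the 40 tested genes (rows, in order of role) in each of the 6 libraries (columns), as log2(normalized count + 1) minus the mean of the vehicle libraries, red above and blue below. The 3 4-OHT columns share a colour for Fabp2, Plin2 and Angptl4 (red) and for Ppargc1a, Ppargc1b and Acot2 (blue), while Etfb varies within both groups.

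All 5 lipid droplet and triglyceride genes of the set rose. Of all genes tested 22.7% did, and of those with a mean of at least 1000, 36.1%. Their 4-OHT values lay wholly above the vehicle values in all 5 genes of the set, beside 52.1% of all genes tested whose groups did not overlap in either direction. In a separate list of lipid droplet and lipolysis genes, 1 of 5 tested rose and the median log2 fold change was -0.29. There Abhd5 was the gene that rose, and Plin4, Plin5, Cidec and Lipe, named after their values were seen, did not pass at -0.75 to -0.20. Plin2, a coat protein of lipid droplets and a known PPAR target, rose from 3583, 3367 and 3395 normalized counts to 5118, 5745 and 5444, or from 3448 ± 117 to 5435 ± 313 (SD, n = 3). The log2 fold change was 0.66 (SE 0.05, adjusted p = 2.6e-09), or 1.57-fold, and it passed under all 16 alternatives at 0.57 to 0.70. Plin3, another coat protein, rose from 3770, 3608 and 3603 to 4159, 4686 and 4408, with a log2 fold change of 0.27 (SE 0.05, adjusted p = 0.00015). The 2 enzymes of the last step of triglyceride synthesis rose by like amounts, Dgat1 by 0.25 (SE 0.07, adjusted p = 0.0076) and Dgat2 by 0.25 (SE 0.06, adjusted p = 0.0017). Pnpla2, the lipase that begins to break the stored triglyceride down, rose by 0.15 (SE 0.05, adjusted p = 0.011). Without 4-OHT replicates 2 and 3, Dgat2 (0.17) and Pnpla2 (0.14) did not pass, and Pnpla2 did not pass under quantile normalization either (0.10).

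Angptl4, a secreted inhibitor of lipoprotein lipase and a strong PPAR target in many cells, rose from 49.4, 51.1 and 46 normalized counts to 94, 118 and 126. The means were 48.8 ± 2.59 and 113 ± 16.8 (SD, n = 3), which is a log2 change of 1.18 (SE 0.18, adjusted p = 2e-05) or 2.27-fold. The groups were far apart next to the vehicle spread. It passed under all 16 alternatives, at 0.93 to 1.31, with the lowest value when 4-OHT replicates 2 and 3 were left out.

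The Plin2 promoter is shown as that of the gene with the smallest adjusted p of the set. The 250 bases before its start lie at chr4:86670060-86670309 on the minus strand and are printed on the gene's strand.
Plin2: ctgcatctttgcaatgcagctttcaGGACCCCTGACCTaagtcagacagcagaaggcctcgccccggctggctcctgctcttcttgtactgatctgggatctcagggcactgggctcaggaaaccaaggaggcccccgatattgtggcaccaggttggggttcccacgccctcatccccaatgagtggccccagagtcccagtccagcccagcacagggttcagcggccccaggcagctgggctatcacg
The capitals mark a repeat on the opposite strand at -225 to -213, with 2 mismatches to the fixed bases.

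Promoters in the RefSeq table were matched for 36 of the 43 genes, 41 promoters in all. Angptl4, Ppargc1b, Acaa2, Decr1, Hsd17b4, Dgat1 and Dgat2 had no match there, so their promoters were not searched. A repeat with up to 2 mismatches lay in 6 of the 41, or 14.6%, against 3.86% of all 32851 promoters of that length. With up to 1 mismatch it lay in 1 of the 41, or 2.44%, against 0.554%, and no promoter of the set held an exact repeat, which 0.0396% of all promoters did. The single motif AGGTCA, which the repeat contains, was in 22.0% of the set's promoters and 16.3% of all. The 6 sites are shown, read in the direction of the repeat with the bases that match it in capitals and the spacer base in lower case.
Fabp1: AGGcCAtAGGTCA
Plin2: AGGTCAggGGTCc
Cd36: AaGTCAgAGGcCA
Etfa: AGGgCAaAGGTaA
Rxra: tGGTCAtAGGcCA
Slc25a20: AGGTgAaAGGTCg
The Rxra site belongs to the start at the window chr2:27709042-27709341, and the Slc25a20 site lies just after its start. Of these 6 genes only Plin2 passed the test, Etfa, Rxra and Slc25a20 did not, and Fabp1 and Cd36 were too low to test. A match of letters is a description of the sequence and not a binding site.

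Other genes of the same pathways were listed for context, 60 of them in the table and 49 tested. Of these 9 rose and 9 fell, or 18.4% each, against the 22.7% and 21% of all genes, with a median log2 fold change of -0.05. The largest rises were of Abhd5, the activator of the Pnpla2 lipase, by 0.39 (SE 0.06, adjusted p = 4.5e-05), of Slc27a4, the main fatty acid transport protein of enterocytes, by 0.37 (SE 0.05, adjusted p = 1.7e-05), and of Crat, carnitine acetyltransferase, by 0.31 (SE 0.07, adjusted p = 0.0013). All 3 were higher in every 4-OHT library than in any vehicle library, as Abhd5 was at 684, 653 and 638 normalized counts against 855, 876 and 862. The largest fall was of Fgf21, a hormone induced by PPARs in liver, from 42, 45 and 19 reads to 8, 7 and 3. Its log2 fold change was -2.18 (SE 0.41, adjusted p = 0.0002). That size is uncertain at so few reads, and it ranged from -2.39 to -1.34 over the alternatives. Acox2, a peroxisomal oxidase of branched chains and bile acid precursors, fell from 486, 473 and 465 normalized counts to 267, 286 and 324, a log2 fold change of -0.70 (SE 0.09, adjusted p = 2.9e-06). Pex11a, which promotes peroxisome division, was at -0.39 (SE 0.13, adjusted p = 0.021) and did not pass without vehicle replicate 2 (-0.33) or 4-OHT replicate 3 (-0.29), nor without 4-OHT replicates 2 and 3 together (-0.21).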

How the data were processed

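RNA of 6 mouse colon organoid samples, 3 with vehicle and 3 with 4-OHT, was sequenced in bulk. The submitters' processing notes name STAR, DESeq2 and the build GRCm39 (mm39), with no versions or roles. The aligner settings, counting and strand setting are not given in the sources used here. The deposited table holds normalized counts per gene, a signal that the authors scaled by library and did not log-transform. Every value was a whole multiple of 1 step per library (100% of values within 0.1 reads), which gave back the reads, 15804709 to 26957612 a library. A count of 0 allows up to 3 reads, and this floor covers counting error only.

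Groups came from the labels. The values were tested as log2(normalized count + 1), which understates the change of low genes, for 13210 genes with a mean of at least 10, using limma 3.58.1 with a trended variance (R 4.3.3) and Benjamini-Hochberg adjustment over all of them, at a threshold of 0.05. SE and 95% intervals are from that fit, and its p-values are two-sided. Alternatives were pseudocounts of 0.1 and 10, no filter, a mean of at least 50, TMM, quantile normalization, a replicate block, count tests of the recovered reads with edgeR 4.0.16 or with DESeq2 1.42.0, and leaving out each library or 4-OHT replicates 2 and 3 together. The background of genes with a mean of at least 1000 was added after the data were seen. Scripts were tested on simulated data. No pair of replicates differed by as little as sampling noise (chi-square per degree of freedom 3.49 to 6.44).

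The genes and lists were chosen with earlier results of these data known. All 43 genes could be named by role. Library values were given for those past the threshold with a log2 change beyond 0.5, the PPAR factors, Cpt1a and genes under the filter, and for others where a result turned on them. Of the other pathway genes, the 3 largest rises and falls past the threshold were named. Sequences are from RefSeq tables of build GRCm38.p6, and word sharing and exon overlap from GENCODE on GRCm38. Neither is the files' build, so no coordinates were joined to the counts.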

Additional observations from a re-analysis of the deposited data

How the results depend on the processing

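Of 638 values for the 40 tested genes under 16 alternatives, 588 kept direction and side of the threshold, 32 no longer passed (15 genes), 6 newly passed (4 genes) and 12 changed sign (4 genes). Leaving out 4-OHT replicates 2 and 3 together, with the lone library assumed to vary like the others, left 8 genes higher and 5 lower, and 4 other pathway genes higher and 8 lower. Leaving out single libraries gave 14 to 17 higher and 6 to 9 lower, edgeR 16 and 9, DESeq2 16 and 8. Sign changes came only in genes that passed in neither fit. Without 4-OHT replicates 2 and 3, Acadvl was at -0.01, Eci1 at 0.01, Etfb at -0.41 and Acaa1a at -0.03. Leaving out single libraries, Eci1 ranged from -0.04 to 0.06, Etfb from -0.22 to 0.24 and Acaa1a from -0.02 to 0.09. Etfb was at -0.02 by edgeR and -0.0037 by DESeq2. The causes were not tested. Same-numbered samples shared no visible deviation from their group means (correlations -0.007, 0.03 and -0.02). With 3 libraries a group this cannot show whether they came from the same culture or animal. A replicate block gave 17 higher and 8 lower, and 9 and 9 of the other pathway genes. Depth limits Ppara, Cd36, Fabp1, Etfb, Acaa1b and Fgf21.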
